A study of Nematostella vectensis with 84 samples.

Results

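The cells described here are those that the authors' clustering of Nematostella vectensis cells places in fine cluster 1, named Epidermis. They were chosen by that annotation alone and numbered 814 of 12352 cells, or 6.59%. Epidermis was the second largest of 45 fine clusters, behind a Progenitor cluster of 921 cells, and the broad cluster of the same name held exactly the same 814 cells. Molecule counts per gene were not used here, so the name was not checked against marker genes and stands as the authors' own.

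The starlet sea anemone has an outer epithelium, the epidermis, and an inner epithelium, the gastrodermis, separated by a gelatinous layer. The epidermis faces the sea water and also houses stinging cells, gland cells, sensory cells and nerve cells. The reporter KikGR fluoresces green when newly made and is switched permanently to red by light. Protein made after the illumination is green again, so a cell can hold old red protein, new green protein or both. How complete the conversion was is not given in the sources used here.

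All animals were adults of 6 to 8 weeks, heterozygous for a stable transgene that drives KikGR from Elav (Elav>KikGR), FoxL2 (FoxL2>KikGR) or SoxC (SoxC>KikGR). Elav genes encode RNA-binding proteins widely used as neuronal markers, while FoxL2 and SoxC genes encode transcription factors. The body wall with mesenteries was dissociated 2, 4 or 7 days after photoconversion, and cells were sorted singly into wells and sequenced by MARS-seq, which reads the RNA of each sorted cell. There were 27 dissociations, 84 libraries and 44 plates. The median dissociation had 363 cells (range 245 to 995). The Elav line had 1 DMSO and 2 untreated dissociations at day 2, 2 DMSO at day 4, and 1 DMSO and 2 untreated at day 7. The FoxL2 line had 1 DMSO and 3 untreated at day 2, 2 of each at day 4, and 2 DMSO at day 7. The SoxC line had 1, 3 and 5 dissociations at days 2, 4 and 7, all with DMSO. DMSO was at 1%, and dissociations for which the labels state no treatment are called untreated. How many animals went into a dissociation is not given in the sources used here, so p-values measure the spread between dissociations.

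The labels' dissociation was used as the replicate. All 9 untreated dissociations were in 1 of the 4 demultiplexing pools of the deposited well lists, and that pool held no DMSO dissociation, so the effects of medium and of pool cannot be told apart. Well barcodes were reused, with 5184 of 5952 occurring in more than 1 pool and 0 shared by libraries within a pool. Cells came from a gate for reporter-positive cells (KikGR+, 9127 cells), a gate labelled epithelial-depleted (2568 cells) and a gate labelled new (657 cells). The latter gates held FoxL2 cells only. Shares are therefore given in percent of the KikGR+ gate cells that the authors kept in their cell table, unless said otherwise, over 25 dissociations of 157 to 614 cells. They describe reporter-positive cells that were sorted and kept, not the tissue. In the 76 libraries that the well lists cover, 11187 of 14328 wells with a sorted cell were kept, or 63.7% to 87.3% by dissociation.

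The first comparison asked how the reporter lines differ in the share of Epidermis cells. Epidermis cells were mostly FoxL2 cells. That line gave 666 of them, or 81.8%, but 49.7% of all cells. Elav gave 53 and SoxC 95. They were found in 75 of 84 libraries and 26 of 27 dissociations. In the KikGR+ gate the Epidermis share was 15.8% ± 11.1 (SD, n = 8) in FoxL2, 2.94% ± 3.10 (SD, n = 9) in SoxC and 1.74% ± 2.38 (SD, n = 8) in Elav.

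In FoxL2 the share had a minimum of 1.23%, a median of 12.7% and a maximum of 31.9%. At day 2 it was 31.9% with DMSO and 6.67% untreated. At day 4 it was 12.1% and 13.3% with DMSO, and 8.28% and 1.23% untreated. At day 7 both dissociations had DMSO, with 27.7% and 25.4%. The FoxL2 dissociations thus spanned from a level common in the other lines up to 31.9% of kept cells, and the 3 untreated ones were the lowest 3.

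In Elav the range was 0% to 7.16% with a median of 0.668%. At day 2 the DMSO share was 2.36%, and the untreated dissociations held 2 of 304 cells (0.658%) and 0 of 287 cells, which allows a share of up to 1.05%. At day 4 both DMSO dissociations were low, at 0.678% and 2.46%. At day 7 the DMSO dissociation reached 7.16%, while the untreated ones stayed at 0.312% and 0.304%. The 7.16% dissociation was the only one of the line above 2.46%.

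In SoxC the range was 0.647% to 10.4% with a median of 1.32%. The single day 2 dissociation had 3.75%. The day 4 shares were 4.25%, 1.22% and 0.721%. At day 7 the shares were 1.32%, 10.4%, 0.647%, 1.16% and 2.95%, so 1 of 5 stood far above the rest. The 95% Wilson interval of that dissociation was 7.43% to 14.4%, against 1.56% to 5.51% for the next, and such intervals cover counting error only.

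**Figure D1:**
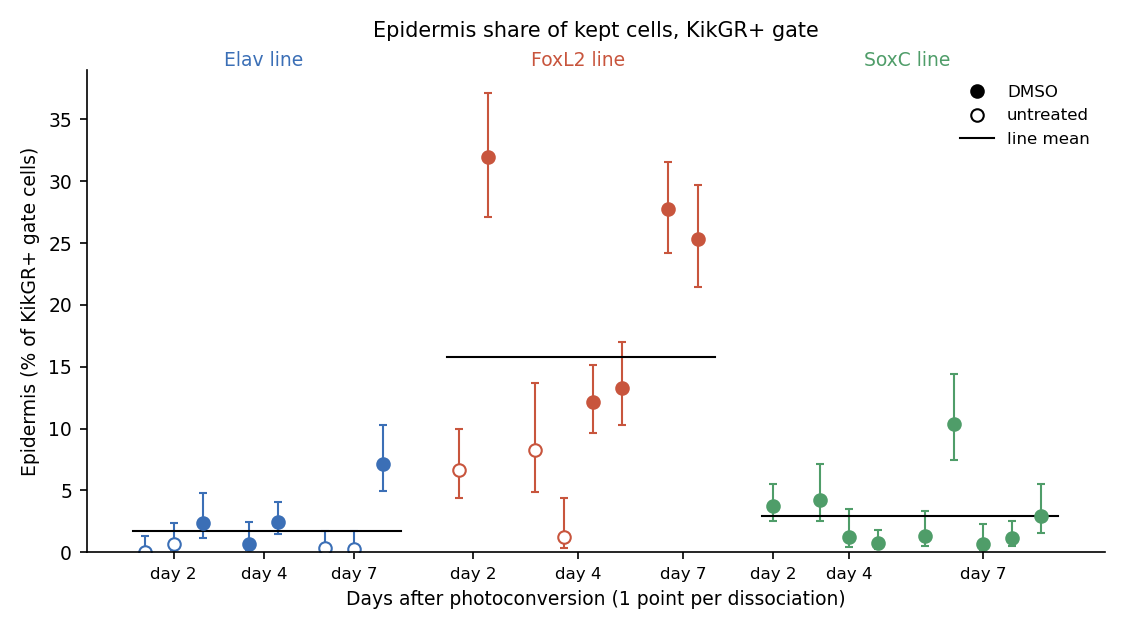
Epidermis share of kept KikGR+ gate cells in percent for each of the 25 dissociations, by line and day after photoconversion. Filled points are DMSO and open points untreated, bars are 95% Wilson intervals of counting error, and black lines are line means. FoxL2 DMSO dissociations lie at 12.1% and above, and 1 Elav (7.16%) and 1 SoxC (10.4%) dissociation stand above the rest of their lines.

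Differences between lines made up 50.2% of the sum of squares of the Epidermis share (permutation test with 100000 resamples, adjusted p = 0.00075 over 45 clusters). Across all fine clusters, 62.2% passed this test, so a difference between lines was common and Epidermis ranked 11 of 45 by that measure. The mean was 14.1 percentage points higher in FoxL2 than in Elav (two-sided exact permutation test, adjusted p = 0.0059), in a comparison where 20% of clusters passed. FoxL2 exceeded SoxC by 12.9 points (exact permutation test, adjusted p = 0.00724), where 48.9% passed. In both comparisons the Epidermis difference was the largest increase of the 45 clusters, followed by the cluster Neural 4 - Anoctamin8 at 2.60 points against Elav and the Progenitor cluster at 4.78 points against SoxC. The 1.19 points between SoxC and Elav did not pass (exact permutation test, adjusted p = 0.541), where 60% of clusters did. In percent of all wells with a sorted cell, in the listed libraries, FoxL2 exceeded Elav by 10.8 points and SoxC by 9.66 points (exact permutation tests, adjusted p = 0.00477 and 0.00798).

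Medium and pool were spread unevenly over the lines, so the comparison was repeated within each medium. The DMSO set still mixed pools, so pool was not held constant there. Among DMSO dissociations FoxL2 exceeded SoxC by 19.1 points (exact permutation test, adjusted p = 0.0135) and Elav by 18.9 points, which did not pass (exact permutation test, adjusted p = 0.0765, unadjusted p = 0.0238). Among untreated dissociations FoxL2 exceeded Elav by 5.08 points, with the smallest exact permutation p that 3 against 4 dissociations allow, 0.0286. With adjustment over all clusters and pairs it was 0.246, and no cluster passed between lines in that set. In the untreated set all 3 FoxL2 shares, from 1.23% to 8.28%, were above all 4 Elav shares, from 0% to 0.658%.

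Within lines, Epidermis also took a different place in the order of clusters by mean share. It was the most abundant of 45 clusters in FoxL2, ahead of the Progenitor cluster at 7.23%. In SoxC it ranked 11 of 45, between Neural 2 - WFSa at 2.98% and the parietal muscle cluster of the gastrodermis at 2.85%, and the first was a Gastrodermis cluster at 8.62%. In Elav it ranked 18 of 45, between clusters of Neural 1 at 1.83% and 1.68%, and the first was a Neural 1 cluster at 8.91%. Neighbours in these orders lay closer together than the SD between dissociations.

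Libraries of the same dissociation differed much less than the dissociations of a line did across days and media. The root mean square SD between libraries was 4.28 points in FoxL2 (6 dissociations with more than 1 library), against 3.35 points from counting alone and an SD of 11.1 between dissociations. In SoxC these values were 1.29, 1.37 and 3.10 points, and in Elav 0.718, 1.12 and 2.38 points. Dissociations of the same day and medium did not always differ more than libraries. In FoxL2 their SD was 0.814 (day 4 DMSO), 4.98 (day 4 untreated) and 1.68 points (day 7 DMSO), each with n = 2. In SoxC it was 1.91 at day 4 (n = 3) and 4.06 at day 7 (n = 5). In Elav it was 0.465 (day 2 untreated), 1.26 (day 4 DMSO) and 0.00536 (day 7 untreated), each with n = 2.

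The share of Epidermis among epithelial cells, meaning Epidermis plus Gastrodermis cells, does not depend on how many neural, secretory or progenitor cells were sorted and kept. Gastrodermis, the inner layer, comprised 4 fine clusters with 1859 cells, including 412 cells of a parietal muscle cluster. On this scale FoxL2 stood apart from the other lines, which overlapped with each other. Epidermis made up 59.2% ± 15.0 (SD, n = 8) of epithelial cells in FoxL2, 12.3% ± 9.51 (SD, n = 9) in SoxC and 8.69% ± 10.5 (SD, n = 8) in Elav.

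The lowest FoxL2 dissociation had 34.6% of epithelial cells in Epidermis and the highest 87.6%. The highest SoxC dissociation had 34.1% and the highest Elav dissociation 33.3%, so the FoxL2 values did not overlap with either line, by a narrow margin at that end. With the cells of all gates they did overlap, since FoxL2 dissociation 15 was then at 20.1%. The median was 58.8% in FoxL2, 8.89% in SoxC and 6.44% in Elav. FoxL2 dissociation 13, with only 4 epithelial cells of which 2 were Epidermis, was below the minimum of 10 cells and was left out of every test on this scale.

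Over the 7 FoxL2 dissociations that were tested, FoxL2 exceeded Elav by 51.8 points (exact permutation test, adjusted p = 0.000466 over the 3 pairs). It exceeded SoxC by 48.2 points (exact permutation test, adjusted p = 0.000262), and SoxC exceeded Elav by 3.63 points, which did not pass (exact permutation test, adjusted p = 0.46). Gastrodermis cells were 10.9% ± 9.04 of all kept cells in FoxL2 (SD, n = 8), 19.1% ± 10.5 in SoxC (SD, n = 9) and 17.1% ± 9.95 in Elav (SD, n = 8). Among its fine clusters, only the parietal muscle cluster in FoxL2 against Elav passed, at 1.72% and 5.84% (exact permutation test, adjusted p = 0.036). The other 3 clusters did not pass in FoxL2 against Elav, and none of the 4 passed in FoxL2 against SoxC, where the lowest adjusted p was 0.0536 (exact permutation test, 3.18% against 8.62%).

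**Figure D2:**
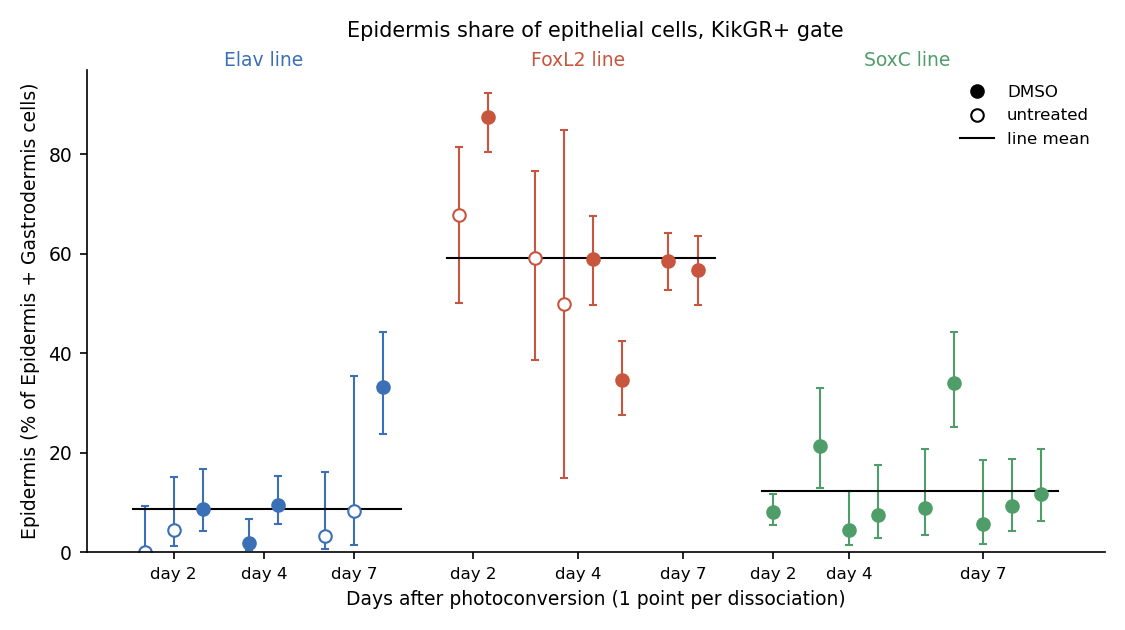
Epidermis cells in percent of Epidermis plus Gastrodermis cells of the KikGR+ gate, 1 point per dissociation, with 95% Wilson intervals of counting error and black lines at line means. Filled points are DMSO and open points untreated. All FoxL2 points lie at 34.6% or above, and all Elav and SoxC points at 34.1% or below.

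Among fine clusters, the one whose share followed Epidermis most closely over the 25 dissociations was the Gastrodermis cluster of 667 cells, with a Spearman rho of 0.44. Next came Neural 3 - PaxC at 0.42 and the Gastrodermis cluster of 125 cells at 0.31. The first had a rho of 0.81 in Elav (n = 8), 0.60 in FoxL2 (n = 8) and 0.80 in SoxC (n = 9). In the same order of lines, Neural 3 - PaxC had 0.76, 0.25 and 0, and the cluster of 125 cells 0.55, 0.43 and -0.018. Within Elav and within FoxL2 some other clusters had a higher rho than the first, up to 0.93 and 0.79. These are descriptions over dissociations that share a total, a line and a medium.

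The gates labelled epithelial-depleted and new were compared with the KikGR+ gate within FoxL2 dissociations. Epidermis cells were not absent from the epithelial-depleted gate. It held 97 Epidermis cells in 5 untreated dissociations, at 4.44% ± 3.67 (SD, n = 5) of its cells. Dissociation 10 had 6.67% in the KikGR+ gate and 2.92% in the depleted gate. Dissociation 12 had 8.28% and 2.21%. Dissociation 13 had 1.23% and 1.20%. The mean difference was 3.28 points, lower in the depleted gate in all 3 pairs but by little in dissociation 13, and 3 pairs cannot give an exact sign-flip permutation p below 0.25. Dissociations 18 and 19 were sorted with the depleted gate only and had 5.50% and 10.4%.

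In the depleted gate, Epidermis was 48.9% ± 10.9 (SD, n = 5) of epithelial cells, with a range of 40% to 66.7%. In dissociations 10, 12 and 13 the KikGR+ gate gave 67.7%, 59.1% and 50%, where the last rests on 4 cells. The gate labelled new was used in 2 DMSO dissociations. Dissociation 11 had 31.9% in the KikGR+ gate and 9.15% in the new gate, and dissociation 15 had 13.3% and 3.42%, with Wilson intervals of counting error that did not overlap. The mean difference of 16.3 points was the largest of the 45 clusters, and 2 pairs cannot give an exact sign-flip permutation p below 0.5. Gastrodermis cells made up 21.2% and 45.0% of the new gate, so Epidermis was 30.1% and 7.06% of epithelial cells there, against 87.6% and 34.6% in the KikGR+ gate.

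**Figure D3:**
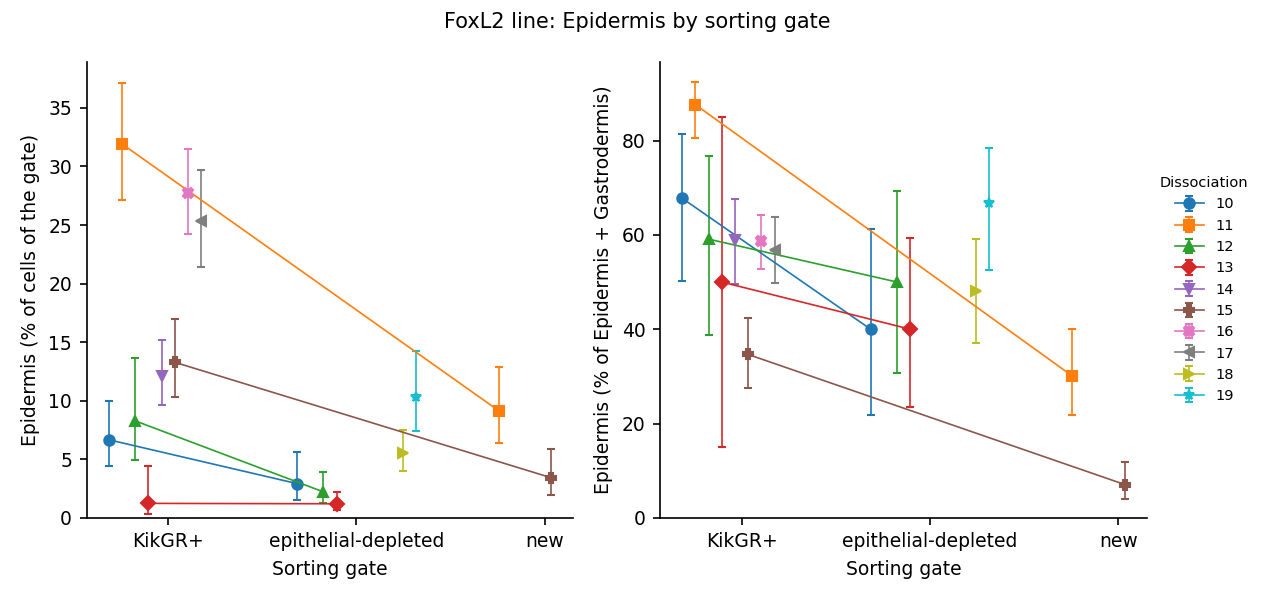
FoxL2 line, Epidermis share of the cells of each sorting gate (left, percent) and of Epidermis plus Gastrodermis cells (right, percent). Each marker is a dissociation, lines join gates of the same dissociation, and bars are 95% Wilson intervals of counting error. In both dissociations with a new gate the Epidermis share is lower there (9.15% against 31.9%, 3.42% against 13.3%).

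DMSO and untreated dissociations could be compared in 4 combinations of line and day. Epidermis shares were higher with DMSO in each of these. In Elav the DMSO values of 2.36% at day 2 and 7.16% at day 7 were above untreated values of at most 0.658% and 0.312%. In FoxL2 the DMSO value of 31.9% at day 2 was above 6.67%, and those of 12.1% and 13.3% at day 4 were above 8.28% and 1.23%.

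The weighted mean difference was 9.36 points, the largest of the 45 clusters, and 5.95 points without FoxL2 dissociation 10 or 11, either of which removes FoxL2 day 2 from the comparison. In percent of all wells with a sorted cell it was 6.38 points. Its exact permutation p was 0.00926, the smallest that the 108 arrangements allow, and it did not pass after adjustment (adjusted p = 0.104). At this design 9 clusters at that smallest p would have been enough for them to pass, and 3 reached it. Of all clusters 0% passed, while 12 of 45 had an unadjusted p under 0.05. With the cells of all gates the difference was 7.93 points and passed (exact permutation test, adjusted p = 0.0417, 5 clusters passing), but the depleted gate held untreated cells only and the new gate DMSO cells only.

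Among Gastrodermis clusters, those of 667 and 125 cells were higher with DMSO by 4.46 and 2.45 points, and neither passed (exact permutation test, adjusted p = 0.104 for both). All Gastrodermis cells together made up 25.0% with DMSO and 13.4% untreated in Elav at day 2, and 14.3% and 6.34% at day 7. In FoxL2 they made up 4.52% and 3.17% at day 2, and 16.8% and 3.48% at day 4. This difference was not tested, and the rank of Epidermis above is among single fine clusters. The Epidermis share of epithelial cells differed by 9.74 points with dissociation 13 left out (exact permutation p = 0.315). It was 3.26 points without Elav dissociation 27 (exact permutation p = 0.722) and 17.8 points without FoxL2 dissociation 12 (exact permutation p = 0.0556). In FoxL2 at day 2 this share was 87.6% with DMSO and 67.7% untreated (n = 1 each). At day 4 the FoxL2 means were 46.8% and 54.5% (n = 2 each), the latter including dissociation 13 with only 4 epithelial cells. In Elav the share was 8.64% with DMSO (n = 1) and 2.27% untreated (n = 2) at day 2. At day 7 it was 33.3% (n = 1) and 5.78% (n = 2). DMSO and demultiplexing pool cannot be told apart in any of these values.

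No trend of the Epidermis share with days after photoconversion passed the test. The common slope within lines was 0.708 points per day (permutation test with 100000 resamples, adjusted p = 0.987), and 0% of clusters passed, with 0 of 45 at an unadjusted p under 0.05. The slope was 1.98 points per day in FoxL2, 0.318 in Elav and 0.126 in SoxC, and none passed (exact permutation tests, adjusted p = 0.996 for each). Day 7 held the highest Elav and SoxC shares but also the lowest SoxC share, and in FoxL2 the day 2 and day 7 DMSO shares were both above the day 4 ones. Without FoxL2 dissociation 11 the common slope was 1.23 points per day (permutation test, adjusted p = 0.826, unadjusted p = 0.0184) and the FoxL2 slope 4.66 (exact permutation test, adjusted p = 0.962, unadjusted p = 0.019). Without FoxL2 dissociation 16 they were 0.340 and 0.771 points per day. Among untreated dissociations the common slope was -0.0958 points per day.

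The reporter colour of a cell is the authors' class green, orange or red, and the rule that set it is not given in the sources used here. Classes were present in the KikGR+ gate only, where 664 of 677 Epidermis cells had one. Of the 13 without, 10 were in a single FoxL2 library at day 2 in which none of the 166 cells had a class. Pooled over dissociations, 8.58% of coloured Epidermis cells were green, 69.3% orange and 22.1% red, against 29.7%, 43.1% and 27.1% of all other cells. These pooled values are dominated by FoxL2, which gave 518 of the 664 cells.

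The share per dissociation was used for tests, in the 15 dissociations with at least 5 coloured Epidermis cells (Elav 3, FoxL2 7, SoxC 5). The other 10 of the KikGR+ gate had 0 to 4 such cells. Over the 15, the mean share of green cells was 15.9% ± 28.2 in Epidermis, that of orange cells 52.9% ± 22.3 and that of red cells 31.3% ± 20.4 (SD, n = 15).

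In FoxL2, Epidermis cells were rarely green. Pooled over the dissociations of days 2 and 4, 0 of 251 coloured Epidermis cells were green. The upper limit of 1.20% for that count covers counting error only, not the spread between dissociations. Dissociation 11 alone gave 106 of these cells. In the same dissociations 104 of 1480 other cells (7.03%) and 45 of 177 Gastrodermis cells (25.4%) were green. At day 7 the green Epidermis cells numbered 6 of 159 (3.77%) in dissociation 16 and 13 of 108 (12.0%) in dissociation 17. Orange was the most frequent class in 6 of 7 dissociations, at 54.5% to 88.7% of coloured Epidermis cells. In dissociation 12, at day 4, 6 cells were orange (46.2%) and 7 red. Red made up 45.5% and 30.2% at day 2, 53.8%, 19.7% and 41.5% at day 4, and 7.55% and 6.48% at day 7, so both day 7 dissociations were below all earlier ones. Other cells of the day 7 dissociations were 18.0% and 18.4% red, also below all earlier ones.

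In Elav, 3 dissociations could be read, all with DMSO. At day 2, 0 of 7 Epidermis cells were green, at day 4 4 of 14 (28.6%), and at day 7 25 of 26 (96.2%). The day 7 dissociation had the highest green share of all 15, and it was also the Elav dissociation with the highest Epidermis share. Its other cells were 67.6% green and its Gastrodermis cells 93.9%.

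In SoxC, the green cells numbered 1 of 23 (4.35%) at day 2, 0 of 13 at day 4, and 0 of 31, 3 of 5 and 3 of 9 at day 7. The 31 cells without a green one came from the dissociation with the highest Epidermis share of the line. They comprised 17 orange and 14 red cells, while 45.3% of its other cells and 68.3% of its Gastrodermis cells were green. The day 2 dissociation showed the widest gap, with 4.35% green in Epidermis, 54.9% in other cells and 92.7% in Gastrodermis.

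**Figure D4:**
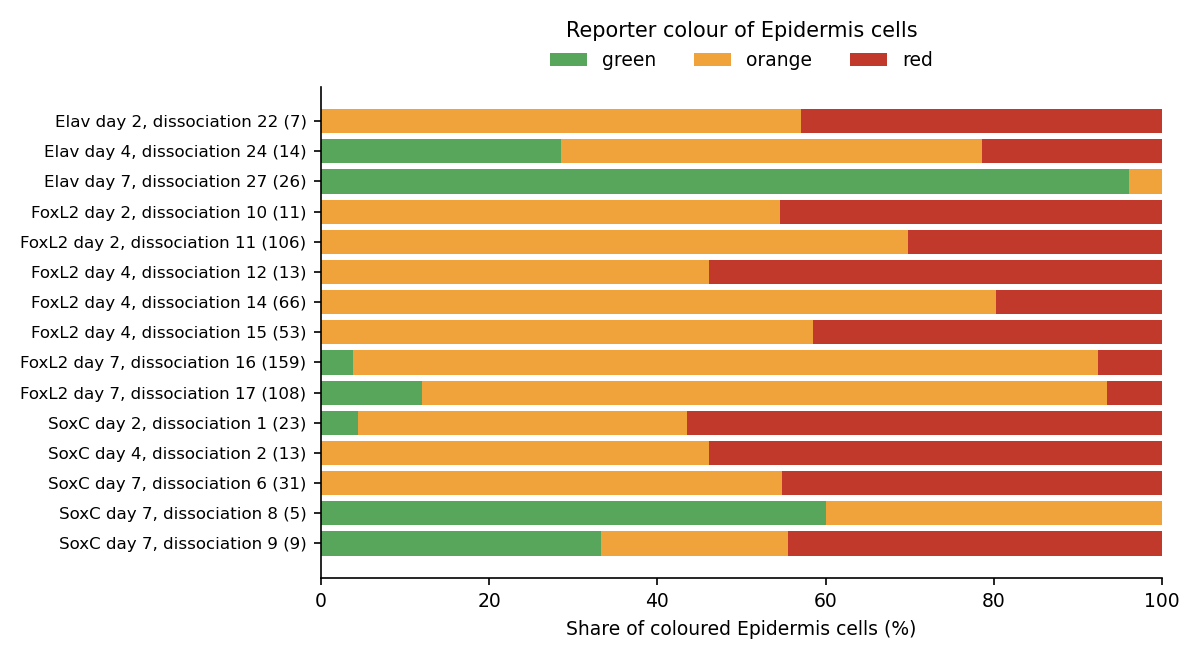
Share of green, orange and red cells among coloured Epidermis cells in percent, for each of the 15 dissociations with at least 5 such cells. The number of cells is in parentheses. FoxL2 has no green cell at days 2 and 4, and the Elav day 7 dissociation is 96.2% green.

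Compared with all other cells of the same dissociation, green Epidermis cells were fewer by 10.3 points, lower in 12 of 15 dissociations, and this did not pass (two-sided exact sign-flip permutation test, adjusted p = 0.143 over 37 clusters). In that comparison 21.6% of clusters passed. Orange cells were more frequent by 7.64 points, higher in 10 of 15 (exact sign-flip permutation test, adjusted p = 0.193, 2.7% of clusters passing). Red cells differed by 2.63 points, higher in 8 of 15 (exact sign-flip permutation test, adjusted p = 0.717, 32.4% of clusters passing). In FoxL2 alone, with p adjusted over the 3 colours, green was 7.71 points lower in 7 of 7 dissociations (exact sign-flip permutation test, adjusted p = 0.0469) and orange 15.3 points higher in 6 of 7 (adjusted p = 0.0469). Red in FoxL2 was 7.61 points lower in 5 of 7 (exact sign-flip permutation test, adjusted p = 0.203). In Elav and SoxC together no colour passed, with green 12.5 points lower in 5 of 8 (exact sign-flip permutation test, adjusted p = 0.422). The 2 lines had opposite signs there. Green was 4.25 points higher in Elav, in 2 of 3 dissociations, and 22.6 points lower in SoxC, in 4 of 5. Orange was 15.5 points lower in Elav, in 3 of 3, and 10.8 points higher in SoxC, in 4 of 5. The difference between FoxL2 and the other lines was not tested.

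Against the inner epithelium the contrast was wide. The green share was 15.9% in Epidermis and 49.4% in Gastrodermis of the same dissociations, 33.6 points lower in Epidermis in 13 of 15 (two-sided exact sign-flip permutation test, p adjusted over the 3 colours = 0.000732). Orange was 12.5 points higher in Epidermis, in 11 of 15 (exact sign-flip permutation test, adjusted p = 0.0157), and red 21.0 points higher, in 12 of 15 (exact sign-flip permutation test, adjusted p = 0.00952). The exceptions for green were the Elav day 7 dissociation, where Epidermis was at 96.2% and Gastrodermis at 93.9%, and a FoxL2 day 4 dissociation with no green cell among 13 Epidermis and 9 Gastrodermis cells. Gastrodermis was itself greener than all non-Epidermis cells of these dissociations, at a mean of 26.2%. Its cluster of 125 cells had the highest green difference to other cells of 37 clusters, 35.9 points, and the lowest red difference, -22.3 points. Epidermis ranked 26 of 37 for green and 19 for red. Whether other clusters differ as much from Gastrodermis was not tested.

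By line, the green gap to Gastrodermis was 44.6 points in Elav and SoxC together, with Epidermis lower in 7 of 8 (exact sign-flip permutation test, adjusted p = 0.0313). In FoxL2 alone it was 21.0 points, lower in 6 of 7 with a tie in the other. Its unadjusted p of 0.0313 was the smallest that 6 untied pairs allow in the exact sign-flip permutation test. The adjusted p was 0.0938, so this test could not pass unless another colour did too. The difference between these sets of lines was not tested. Among DMSO dissociations, where pools with untreated cells play no part, it was 37.2 points (exact sign-flip permutation test, adjusted p = 0.00146). Leaving out each dissociation in turn kept all 3 colours past the threshold, with adjusted p of at most 0.0314.

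**Figure D5:**
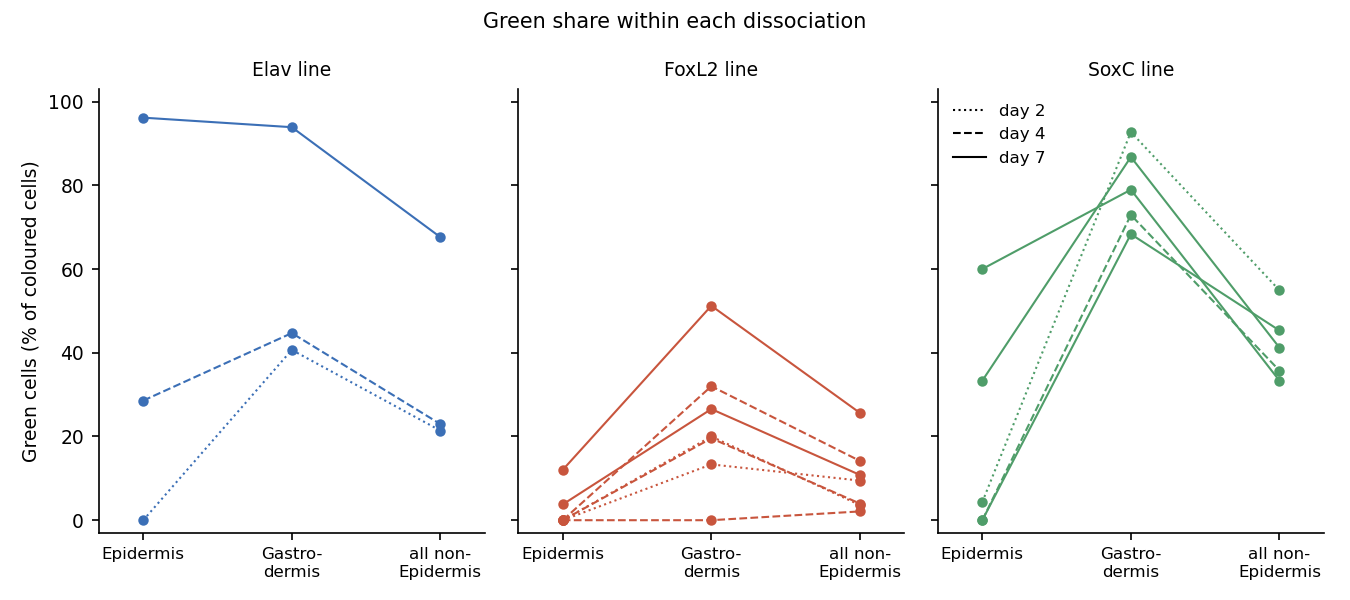
Green cells in percent of coloured cells for Epidermis, Gastrodermis and all non-Epidermis cells (which include Gastrodermis), by line. Each line joins the values of a dissociation and its style gives the day. Epidermis lies below Gastrodermis in 13 of 15 dissociations.

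Between lines, none of 9 comparisons of Epidermis colour passed. The widest by p was the orange share, 28.0 points higher in FoxL2 than in SoxC (two-sided exact permutation test, adjusted p = 0.114, unadjusted p = 0.0126), at 68.5% ± 15.9 (SD, n = 7) and 40.5% ± 12.0 (SD, n = 5). Mean green shares were 2.26% ± 4.54 in FoxL2 (SD, n = 7), 19.5% ± 26.6 in SoxC (SD, n = 5) and 41.6% ± 49.4 in Elav (SD, n = 3), with wide overlap.

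Within lines, the common slope with days was upward for green Epidermis cells and downward for red ones. The green share rose by 7.16 points per day (exact permutation test of day labels within lines, adjusted p = 0.0304 over 3 colours), and the red share changed by -6.73 points per day (permutation test, adjusted p = 0.0206). Orange had a slope of -0.427 points per day (permutation test, adjusted p = 0.871). Green did not rise steadily in every line. Its mean share in FoxL2 was 0% at days 2 and 4 and 7.91% at day 7. In SoxC it was 4.35%, 0% and 31.1% at these days. With medium as a further stratum the slopes were 7.61 for green and -5.96 for red (permutation tests, adjusted p = 0.0388 for both).

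These slopes rest on few dissociations. The green slope was 4.24 without the Elav day 7 dissociation (permutation test, adjusted p = 0.13) and 3.15 with at least 10 coloured Epidermis cells per dissociation (permutation test, adjusted p = 0.155). It also missed the threshold without Elav dissociation 22 or 24 (slopes of 5.45 and 7.07, adjusted p = 0.104 for both permutation tests) and without FoxL2 dissociation 17 (7.76, permutation test, adjusted p = 0.0667). Without SoxC dissociation 2 or 9 it was 6.86 or 7.07 (permutation tests, adjusted p = 0.0655 and 0.0605). The red slope missed it without Elav 27, SoxC 2 or FoxL2 17, with values of -6.44, -6.59 and -6.45 (permutation tests, adjusted p = 0.0557, 0.0524 and 0.0508). In the same 15 dissociations, other cells were 21.4%, 23.0% and 67.6% green in Elav at days 2, 4 and 7 (n = 1 per day). Their mean green shares were 6.54%, 6.74% and 18.2% in FoxL2, and 54.9%, 35.7% and 40.0% in SoxC. Red made up 17.1%, 11.4% and 1.89% of other cells in Elav and 45.6%, 43.5% and 18.2% in FoxL2. In SoxC it made up 25.1%, 30.9% and 28.4%. Whether the slopes of Epidermis differ from those of other cells was not tested.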

How the data were processed

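Cells were sorted by reporter fluorescence and sequenced by MARS-seq. Per the submitters' processing notes, STARsolo and STAR 2.7.10b were used. The deposited cell table gives categories only (library, gate, cluster, colour), set by the authors, and their filters, clustering settings, doublet handling and colour rule are not given in the sources used here. Groups came from the labels, from which 0 cells differed. The Epidermis cells and the comparisons were chosen with earlier results of these data known.

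Shares of the kept cells per dissociation were computed in percent with Python 3.11.15, numpy 2.4.6, pandas 2.3.3 and scipy 1.17.1. Lines were compared by permutation of the between-line sum of squares and by exact permutation of each pair, days by permuting labels within lines, DMSO by exact permutation within line and day, and gates and colours by sign flips within dissociations, exact for up to 16 pairs and otherwise with 100000 resamples. Tests other than that of the between-line sum of squares were two-sided. The main tests of shares of kept cells ran over all 45 fine clusters, or over 43 for the epithelial-depleted gate. Tests of colour against all other cells ran over the 37 with at least 5 coloured cells in at least 6 dissociations. Tests of the epithelial share, and of colour by line, by day, within sets of lines or against Gastrodermis, ran on Epidermis alone. P-values were adjusted by Benjamini-Hochberg over the clusters of a comparison, over clusters and pairs for the lines, over line pairs for the epithelial share, over pairs and colours for colour by line, and over 3 colours for colour by day and for Epidermis against Gastrodermis, with a threshold of 0.05. Single-dissociation intervals are 95% Wilson, and a count of 0 allows up to 3 counts of the total. The precision is set by 157 to 614 cells of the KikGR+ gate per dissociation, and molecule counts were not used here. The between-line, day, DMSO and sign-flip tests were run on simulated data, the sign-flip test only in its resampled form. The exact test of line pairs was not run on simulated data.

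Clusters named beside Epidermis are the Gastrodermis clusters, the neighbours of Epidermis in the order of a comparison, the first of that order, and the 3 most alike over dissociations. Alternatives were the logit with 0.5 cells added, equal plate weights, all gates, leaving out Neural 1, DMSO or untreated alone, stricter minimums of cells, Gastrodermis as the reference for colour, single lines and leaving out each dissociation. The share of sorted wells as denominator, and the variants of the Gastrodermis colour comparison, were chosen after seeing the data.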

Additional observations from a re-analysis of the deposited data

Results flagged for a closer look

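In 16 groups of 4 to 10 dissociations, some overlapping, 7 values stood apart from the rest of their group. By chance the rule marks about 1 in 20 groups of normally distributed values. Shares with a floor at 0% need not be so distributed, and some dissociations were marked more than once. Elav dissociation 27, at day 7 with DMSO, had an Epidermis share of 7.16% of cells and 33.3% of epithelial cells, both far above the other 7 Elav dissociations. SoxC dissociation 6, at day 7, had 10.4% of cells, far above the other SoxC dissociations and, separately, above the other 4 of day 7. Its Epidermis share of epithelial cells, 34.1%, stood apart at day 7 as well. FoxL2 dissociation 17, at day 7, had 12.0% green Epidermis cells, above the other 6. SoxC dissociation 8 had a red share of 0% of its 5 coloured Epidermis cells, below the other 4.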

How the results depend on the processing

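The alternatives other than leaving out each dissociation in turn included subsets, such as DMSO alone or single lines. They gave 134 results with the same direction and side of the threshold, or with a similar count of passing clusters. Another 11 reversed direction, 8 fell short of the threshold, 6 newly passed it and 6 counts of clusters moved. Leaving Neural 1 cells out of the total brought the clusters passing between lines from 28 to 14, and untreated dissociations alone brought them to 0, with 61.7% of the spread between lines. FoxL2 minus Elav was 18.9 points with DMSO alone, 15.8 with DMSO alone over all gates and 5.08 untreated alone, each short of the threshold. SoxC minus Elav became -0.230 with DMSO alone, with or without all gates, and -1.04 for epithelial cells. Over all gates DMSO gave 7.93 points and 5 clusters. Among untreated dissociations the slopes were -0.0958 in common, -0.00424 in Elav and -0.955 in FoxL2, and on the logit scale SoxC had -0.0283.

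For colour, the stricter minimum left 4 clusters for green and 4 for red, a green slope of 3.15, an orange slope of 2.23 and a green FoxL2 minus SoxC of 0.809. DMSO alone left 0 clusters for orange (by the sign-flip permutation test) and a red FoxL2 minus Elav of -0.344. Against Gastrodermis the differences were -33.6 (green), 12.5 (orange) and 21.0 (red), and in FoxL2 alone -21.0, 8.75 and 12.2. In FoxL2 alone against all other cells they were -7.71, 15.3 and -7.61. The causes of these shifts were not tested.

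Leaving out each dissociation in turn moved these. The green slope ranged from 4.24 to 8.28, the red slope from -7.45 to -5.69 and the orange slope from -1.76 to 2.21. Clusters passing ranged from 1 to 6 for orange and 4 to 13 for red. The slope of the Epidermis share ranged from 0.340 to 1.23 in common, from 0.771 to 4.66 in FoxL2, from -0.140 to 0.546 in Elav and from -0.337 to 0.411 in SoxC. The DMSO difference ranged from 5.95 to 11.6, and from 3.26 to 17.8 among epithelial cells. SoxC minus Elav ranged from -42.8 to 5.25 for green and -13.1 to 13.5 for orange, and red FoxL2 minus Elav from -2.90 to 18.5.

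Lines, days and media share no dissociation numbers, so they were compared unpaired, while gates and colours were compared within dissociations. The broad cluster in place of the fine one gave identical values. Depth per cell was not used, and few Elav and SoxC dissociations held enough coloured Epidermis cells to read a share.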
